A study of Arabidopsis thaliana with 16 samples.

Results

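The genes described here had more RNA in Col-0 buds grown in low light than in normal light, and less RNA in bhlh89,91 buds for the same change of light. They are 85 of the 33681 genes in the deposited table. A gene was taken when its group mean in TPM (a level scaled to the library's total and corrected for transcript length), plus 0.5, was higher by at least 1 on the log2 scale in low light in Col-0. Its mean also had to be lower by at least 0.5 in low light in bhlh89,91, and to reach at least 2 TPM in Col-0 low light. The rule leaves out 4 single loci and 1 stretch of loci on chromosome 1, which removed 8 of the 93 genes that met the limits. The genes were thus chosen by their measured light responses in both genotypes, so counts from tests of these responses are descriptions of the selected genes and not independent evidence.

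RNA came from whole flower buds of Arabidopsis thaliana that had not reached pollen mitosis I, spanning anther stages 1 to 10. The genotypes were Col-0, the wild type, and bhlh89,91, a double mutant that combines the T-DNA lines SALK-123106 and GK-345C06, which carry insertions in bHLH89 and bHLH91. From the onset of flowering, plants with 16 h days stood either in normal light, labelled 200 µmol m-2 s-1 (measured mean 205, SD 8.6), or under shading nets in low light, labelled 50 (measured mean 53, SD 5). Each of the 4 groups had 4 biological replicates. The p-values below set differences between groups against the spread between such replicates, estimated over all 4 groups together. The columns of the deposited table are numbered 1 to 4 in each group and are named here by that number.

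bHLH89, bHLH91 and bHLH10 are closely related transcription factors of the tapetum, the innermost layer of the anther wall. The tapetum feeds the developing pollen, supplies precursors of the sporopollenin wall (exine) and, as it breaks down, releases lipids, oleosin-like proteins and flavonoid conjugates that settle in the exine as the pollen coat. Enzymes that lengthen fatty acids, lipases, lipid transfer proteins and transporters of the tapetum take part in these steps. A bud sample mixes anthers of several stages with sepals, petals and carpels, and in such a sample fewer cells of a type and less RNA per cell cannot be told apart.

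The libraries held 20419619 to 23346158 estimated counts. RNA of bHLH89 remained in the mutant, at 22.3 ± 2.57 TPM in normal light against 45.9 ± 4.73 TPM in Col-0 (mean ± SD, n = 4), with a log2FC of -1.03 (edgeR quasi-likelihood test, Benjamini-Hochberg adjusted p = 7.8e-05). RNA of bHLH91 was at 22.8 ± 1.83 TPM against 30.1 ± 3.57 TPM (log2FC -0.39, edgeR, adjusted p = 0.029), so reads assigned to either gene remained in the mutant. By qRT-PCR in normal light, the authors found both genes strongly knocked down in this line, bHLH91 far more than bHLH89. Levels summed over whole genes do not tell intact from partial transcripts, so they do not measure the knock-down. Column 4 of both normal light groups stood apart for the genes described here. In bhlh89,91 it was the lowest of its group for 68 of the 85 (23.6% of the 19104 genes of at least 2 TPM), with a median deviation of -1.14 log2 units from the group mean. Over the 19104 genes with at least 2 TPM in Col-0 low light, its median deviation was 0.03. In Col-0 normal light column 4 was the lowest for 64 of the 85 (43.2% of the 19104), with a median deviation of -0.86, against -0.04 over the 19104 genes. In Col-0 low light column 4 was the lowest for 64 (25.0%), with a median deviation of -0.38. In bhlh89,91 low light it was column 2 that was the lowest most often, for 47 (27.7%), with a median deviation of -0.37. Without column 4 of Col-0 normal light, a setting chosen after seeing the data, the median Col-0 response was 2.21 and the low light libraries lay wholly above normal light for 75 of the 85. The main counts over the 85 genes that rest on the mutant's column 4 are given with and without it.

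Summed over the 85 genes, the level in Col-0 normal light was 1618, 2083, 2374 and 776 TPM in columns 1 to 4. In Col-0 low light it was 10125, 12164, 12352 and 8049 TPM. In bhlh89,91 normal light the sums were 3839, 4392, 4067 and 1319 TPM, and in bhlh89,91 low light 2380, 1338, 2417 and 1445 TPM. All 4 Col-0 low light libraries lay above the other 12, whereas the mutant groups overlapped through column 4 of normal light alone. The median response to low light was 2.32 on the log2(TPM + 0.5) scale in Col-0 (range 1.04 to 5.64) and -0.89 in bhlh89,91 (range -2.79 to -0.52). The Col-0 difference was at least 2 for 51 genes. The mutant difference was at least 1 in size for 31 genes and between 0.5 and 1 for the other 54.

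**Figure D1:**
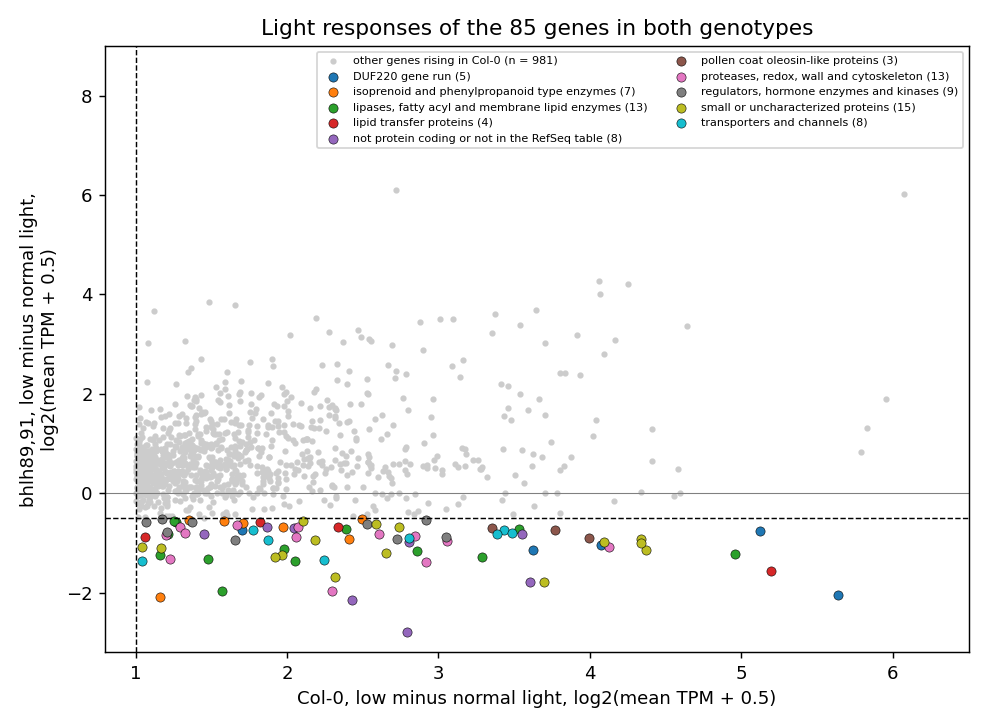
Each point is a gene with a difference of at least 1 in Col-0 and at least 2 TPM in Col-0 low light; the x axis gives the Col-0 response and the y axis the bhlh89,91 response, both as low minus normal light on the log2(mean TPM + 0.5) scale. The 85 genes are coloured by role below the dashed line at -0.5, and 981 others are grey; the Col-0 difference among the 85 reached 5.64.

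The 85 genes are a small share of those with the same Col-0 difference. By the same limits, 1066 genes were higher in Col-0 low light, and 573 of them were also higher by at least 0.5 in the mutant, while 408 lay within 0.5 of no difference. The median mutant response over the 1066 genes was 0.56. The genes nearest the limits show where the set was divided. ABCB11 (1.04) and AT1G49405 (1.04) were just inside the Col-0 limit, and AT5G25640 (0.98) and IOS1 (0.98) just outside. cPT9 (-0.52) and JAR1 (-0.52) were just inside the mutant limit, and MAKR6 (-0.49) and NRT2.6 (-0.49) just outside. For the level in Col-0 low light, AT1G33370 (2.19 TPM) and SHV2 (2.31 TPM) were inside, and AT3G10950 (1.80 TPM) and ERF53 (1.74 TPM) outside.

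The rule asked for a larger difference in Col-0 (1) than in the mutant (0.5), so the counts of genes without overlap are not compared between the genotypes. All 4 Col-0 low light libraries lay above all 4 Col-0 normal light libraries for 74 of the 85 genes (28% of the 19104 genes of at least 2 TPM). All 4 mutant low light libraries lay below all 4 mutant normal light libraries for 6 of the 85 (15.8% of the 19104). Without the mutant's normal light column 4, a setting chosen after seeing the data, that count was 59 (18.4%), the median mutant response was -1.13, and 53 genes had a difference of at least 1. That library was left out because it was low for these genes, so a larger difference follows in part from the choice. The 6 genes were KAT1, AT1G59740, AT1G65500, AT2G21895, AT2G38010 and AT4G29250, and for the 5 other than AT4G29250 the Col-0 libraries did not overlap either. Col-0 low light lay wholly above mutant normal light for 61 of the 85 (31.2%).

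Of the 85 genes, 75 passed the filter of the test (at least 1 CPM in at least 1 library), 4 of them through Col-0 low light libraries only. All 21309 genes that passed were tested with edgeR, and a call needed both a log2FC of at least 1 in size and an adjusted p below 0.01. In Col-0, 68 were called higher in low light (5.86% of tested genes), and in bhlh89,91, 8 were called lower (1.24%). The 8 were KAT1, KCS21, ABCB11, AT4G29250, AT3G26820, AT2G41040, AT1G30020 and AT1G49405. The difference of the responses was called, with the mutant response below that of Col-0, for 66 (1.75%). These contrasts chose the genes, so nothing is read from the counts. The mutant count was 20 without normal light column 4, 0 without normal light column 2, and 1 with limma-voom.

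The oleosin-like genes of the set were GRP19 and GRP20, which encode glycine-rich pollen coat proteins with an oleosin domain, and AT5G07600 of the same family. GRP19 (AT5G07550) was at 7.93, 47.2, 220 and 1.51 TPM in Col-0 normal light and at 496, 841, 998 and 505 TPM in low light. In the mutant it was at 51.2, 219, 155 and 2.51 TPM in normal light and 143, 14.3, 43.3 and 62.8 TPM in low light. Every Col-0 low light library lay above the other 12, while the mutant groups overlapped over nearly their whole range. GRP20 (AT5G07560) had the same order of libraries in Col-0, with 1.44, 7.49, 65.6 and 0.287 TPM in normal light and 172, 329, 364 and 182 TPM in low light. The mutant libraries were at 25.3, 87.6, 55.4 and 1.14 TPM in normal light and 52.8, 6.37, 19.6 and 22.1 TPM in low light. AT5G07600 varied less in low light, at 70.8 ± 11.9 TPM in Col-0 against 9.39 ± 2.77 TPM in bhlh89,91 (mean ± SD, n = 4). The response was 3.35, 3.77 and 4.00 in Col-0 and -0.70, -0.74 and -0.90 in the mutant for GRP19, GRP20 and AT5G07600.

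The other oleosin-like genes of the list did not reach the mutant limit. GRP14, GRP17 and GRP18 differed by 3.49, 3.42 and 3.05 in Col-0 and by -0.41, -0.14 and -0.32 in the mutant. Of the 6 listed genes, GRP19 and GRP20 included, 5 were higher in Col-0 low light at an adjusted p under 0.05 (edgeR; 29.1% of tested genes), none was lower, and in the mutant none passed in either direction. GRP16 differed by 1.81 in Col-0 and by 0.11, a slight rise, in the mutant. It had 20.5 TPM in Col-0 low light and 0.567 TPM in mutant low light. The list was written with earlier results of these data known.

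LTP12 (AT3G51590), a non-specific lipid transfer protein, had the highest level of the 85 genes in Col-0 low light. It was at 367, 472, 466 and 132 TPM in Col-0 normal light and at 1774, 1920, 2116 and 1464 TPM in Col-0 low light. Levels in bhlh89,91 were 1220, 1223, 1228 and 398 TPM in normal light and 717, 475, 862 and 488 TPM in low light. Mutant normal light columns 1 to 3 were nearly equal and column 4 lay below all low light libraries. AT5G44265, of the lipid-transfer and seed storage albumin family, was nearly absent from Col-0 normal light at 0.164, 0, 3.63 and 0 TPM and stood at 40.6, 78.2, 64.6 and 27.4 TPM in low light. In bhlh89,91 the values were 2.82, 11.1, 9.24 and 0.32 TPM in normal light and 2.7, 1.25, 1.68 and 0.962 TPM in low light, 3.13% of the Col-0 low light mean. The other members of this family were AT1G66850, with responses of 1.82 and -0.57 in Col-0 and the mutant, and AT4G14815, with 1.06 and -0.89.

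Lipases and enzymes of fatty acyl and membrane lipids numbered 13, with median responses of 1.98 in Col-0 and -1.16 in the mutant. Col-0 low light libraries lay wholly above normal light for 12 (28% of the 19104 genes), a difference that the rule favours. Mutant low light libraries lay wholly below normal light for 1 (15.8%), with the mutant's normal light column 4 included. The rule's limits differ between the genotypes, so these counts are not compared. AT1G20130 encodes a GDSL-type lipase, a family that cleaves ester bonds of lipids. It was at 4.56, 43.6, 63.3 and 0.642 TPM in Col-0 normal light and at 876, 1077, 1031 and 567 TPM in low light. For the mutant, levels were 127, 199, 154 and 8.98 TPM in normal light and 75.1, 18.4, 68.4 and 45.5 TPM in low light. Its mean in mutant low light was 5.84% of that in Col-0 low light. The other GDSL-type genes of the set, AT1G20120, AT1G20132 and AT1G06990, had Col-0 responses of 3.53, 2.05 and 3.29 and mutant responses of -0.73, -1.35 and -1.29.

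KCS15 (AT3G52160) and KCS21 (AT5G49070) are 3-ketoacyl-CoA synthases, the enzymes that start each round of very-long-chain fatty acid elongation. KCS15 was at 70.7, 55.6, 62.9 and 23.5 TPM in Col-0 normal light and 156, 149, 164 and 127 TPM in low light. In the mutant it was at 82, 79.1, 82.4 and 23 TPM in normal light and 26.3, 19.8, 41.9 and 16.5 TPM in low light. KCS21 was at 5.25, 13.2, 4.34 and 1.55 TPM in Col-0 normal light and 18.7, 24, 22.1 and 11.6 TPM in low light, where a single library overlapped on each side. The mutant libraries were at 23.5, 18.7, 16.5 and 4.29 TPM in normal light and 4.8, 2.27, 5.31 and 2.32 TPM in low light. The family did not move as one. Of the 21 tested genes of the list of ketoacyl-CoA synthases and reductases, 7 were higher and 4 lower in Col-0 low light at an adjusted p under 0.05. Over all tested genes, 29.1% were higher and 28.9% lower, so the share higher in the list was near that over all genes. In the mutant 1 was higher and 10 were lower (16.7% and 16.6% of tested genes). KCS7 and KCR2, which encodes a ketoacyl reductase, came close to the rule, at 0.85 and 1.20 in Col-0 and -1.18 and -0.46 in the mutant.

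CYP86C3 and CYP86C4 belong to a cytochrome P450 family of fatty acid hydroxylases and lie near each other on chromosome 1. CYP86C3 was at 49.7 ± 15 TPM in Col-0 normal light and 112 ± 10.5 TPM in low light, and at 37.9 ± 17.3 and 15.8 ± 6.7 TPM in the mutant. CYP86C4 was lower throughout, at 2.81 ± 1.44 and 16.9 ± 5.77 TPM in Col-0 against 5.33 ± 1.98 and 3.05 ± 0.679 TPM in bhlh89,91 (mean ± SD, n = 4).

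**Figure D2:**
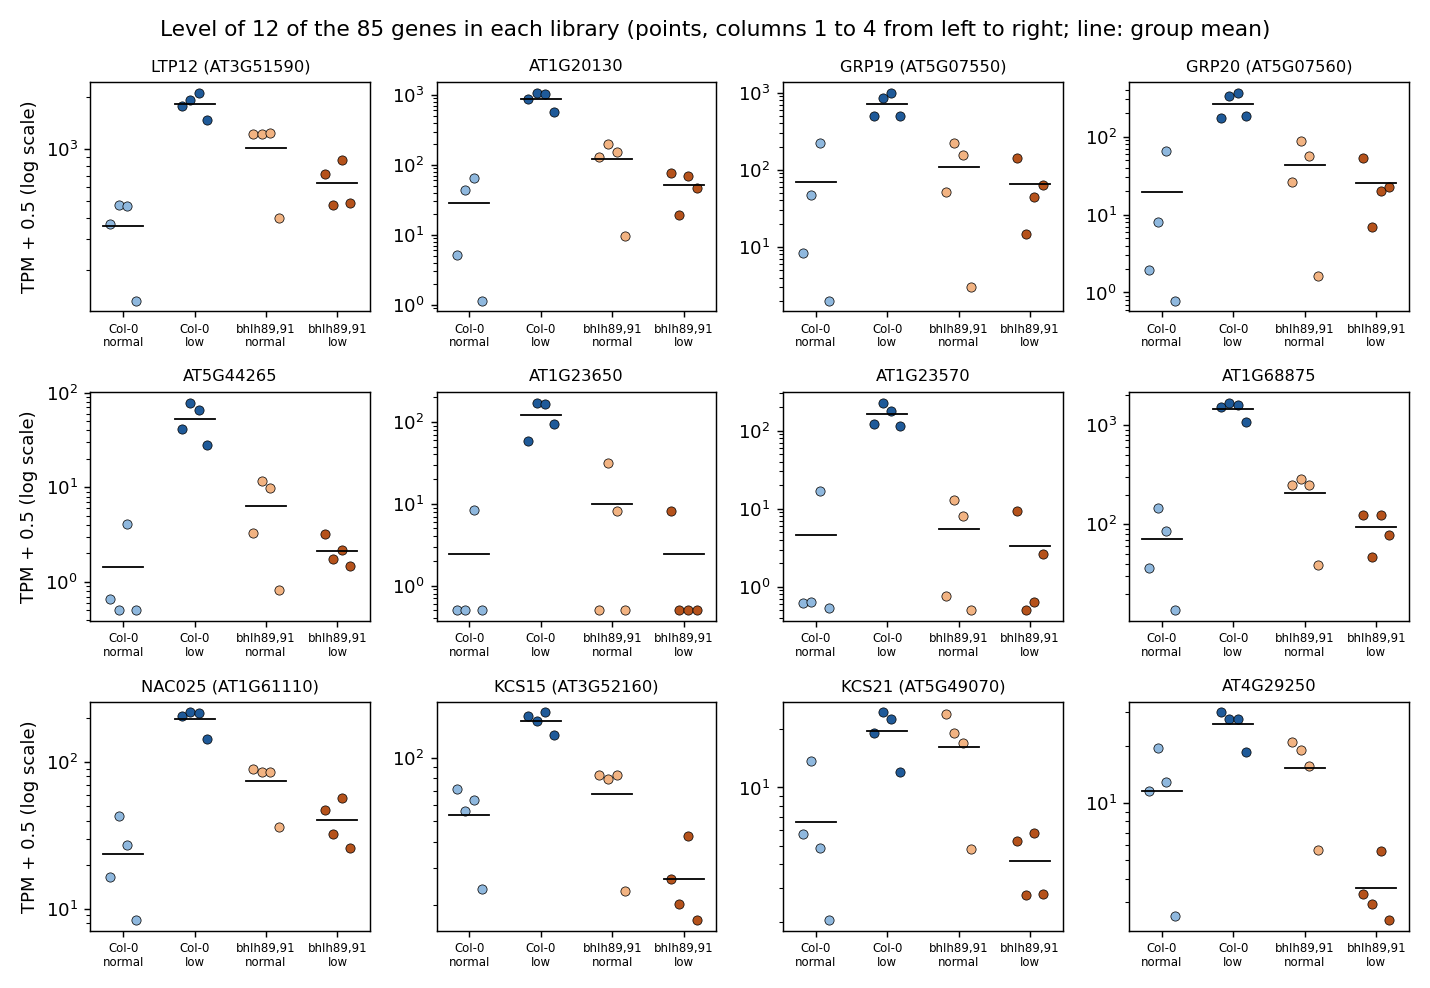
Level of 12 of the 85 genes, as TPM + 0.5 on a log axis, in the 16 libraries; points are single libraries in column order 1 to 4 and lines are group means. For LTP12 the Col-0 low light libraries lie between 1464 and 2116 TPM, above all others, and the mutant's normal light column 4 (398 TPM) lies below its low light libraries.

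AT4G00040, of the chalcone and stilbene synthase family, had the highest level among the 7 isoprenoid and phenylpropanoid type enzymes, with means of 50 and 198 TPM in Col-0 normal and low light against 81.8 and 50.8 TPM in bhlh89,91. GGPS2, a geranylgeranyl pyrophosphate synthase, and PPT1, a polyprenyltransferase of ubiquinone synthesis, had responses of 2.41 and 1.71 in Col-0 and -0.92 and -0.60 in the mutant. The cis-prenyltransferase genes cPT8 and cPT9, whose products build long isoprenoid chains, are adjacent on chromosome 5. cPT9 (AT5G60510) was at 14.9, 22.6, 23.5 and 6.6 TPM in Col-0 normal light and 99.9, 107, 107 and 76.8 TPM in low light. Levels in bhlh89,91 were 81.5, 78.5, 91.8 and 41.2 TPM in normal light and 62.5, 44.9, 64.2 and 32.6 TPM in low light. The level in the mutant in normal light thus lay above every Col-0 normal light library and overlapped the Col-0 low light group. cPT8 had means of 7.18, 22.5, 12.9 and 8.6 TPM in the same order of groups. AT4G29250, an acyltransferase of the HXXXD type, had one of the largest differences in the mutant, from 20.4, 18.4, 15.3 and 5.17 TPM in normal light to 2.81, 2.45, 5.12 and 1.92 TPM in low light, without overlap. In Col-0 it was at 11.1, 19, 12.5 and 2.03 TPM in normal light and 29.5, 27.3, 27.2 and 18.1 TPM in low light, where the groups overlapped.

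NAC025 and NAC2 belong to the plant-specific NAC family of transcription factors, the only such family searched for by annotation. NAC025 (AT1G61110) was at 15.9, 42.2, 26.6 and 7.85 TPM in Col-0 normal light and 205, 218, 215 and 144 TPM in low light. In bhlh89,91 the values were 89.8, 84.5, 84.8 and 35.6 TPM in normal light and 46.6, 31.7, 56.2 and 25.5 TPM in low light. NAC2 (AT3G15510) was lower, with means of 4.16 and 26.4 TPM in Col-0 against 6.03 and 3.74 TPM in bhlh89,91. AT5G13380, of the GH3 family, and JAR1 are related enzymes. AT5G13380 had means of 61.4 and 195 TPM in Col-0 normal and low light against 31.1 and 16 TPM in bhlh89,91. JAR1, which joins jasmonic acid to isoleucine to give the active hormone, had 33.7 ± 7.74 and 76.8 ± 9.59 TPM in Col-0 against 48.6 ± 12.1 and 33.7 ± 4.5 TPM in bhlh89,91. CYP735A2, a cytokinin trans-hydroxylase named after its values were seen, had 0.248 and 4.44 TPM in Col-0 against 1.53 and 0.576 TPM in bhlh89,91.

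All 8 transporters and channels had Col-0 low light libraries wholly above Col-0 normal light (28% of the 19104 genes) and above mutant low light (25.6%), differences that the rule favours. AT4G00040, GGPS2, PPT1, AT5G13380, BOR4, KAT1 and ABCG9 are named after their values were seen. BOR4, a borate exporter, was at 7.12 ± 4.84 TPM in Col-0 normal light and 81.8 ± 19.7 TPM in low light, against 10.3 ± 5.63 and 5.96 ± 2.47 TPM in the mutant. KAT1, an inward potassium channel known from guard cells, was one of the 5 genes without overlap in either response, from 1.34, 1.82, 1.4 and 0.733 TPM to 7.19, 11.4, 9.45 and 4.53 TPM in Col-0. For the mutant, levels were 4.48, 6.26, 5 and 1.88 TPM in normal light and 1.63, 0.851, 1.56 and 1.65 TPM in low light. IRT1, the iron uptake transporter of roots, was at 0.205, 1.14, 0.241 and 0 TPM in Col-0 normal light and 12.2, 7.6, 9.05 and 6.77 TPM in low light. In the mutant it was at 5.08, 8, 6.56 and 1.09 TPM in normal light and 3.21, 1.32, 3.79 and 2.54 TPM in low light. ABCG9, an ABC transporter needed for the sterol glycosides of the pollen coat, had responses of 1.78 and -0.73.

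AT1G68875, an uncharacterized gene, was second in level, at 35.9, 146, 86 and 13.1 TPM in Col-0 normal light and 1505, 1685, 1592 and 1067 TPM in low light. The mutant libraries were at 248, 289, 247 and 38.7 TPM in normal light and 124, 46.1, 124 and 77.2 TPM in low light. AT4G37900, annotated with DUF1399, and AT5G48210, a prolamin-like protein, had means of 350 and 242 TPM in Col-0 low light and of 22.9 and 92.5 TPM in mutant low light. AT5G16960, a zinc-binding dehydrogenase, was at 84.8, 87.6, 95.3 and 25.7 TPM in Col-0 normal light and 358, 399, 417 and 279 TPM in low light. Levels in bhlh89,91 were 69, 83.9, 70.6 and 8.72 TPM in normal light and 17.7, 5.57, 22.5 and 12.4 TPM in low light, 4% of the Col-0 low light mean. AT1G30020 and AT1G26710 had mutant responses of -1.68 and -1.79 and Col-0 responses of 2.32 and 3.69. AT5G16960 and ACT12 belong to a group of 13 genes for proteases, redox enzymes, wall and cytoskeleton proteins. As the rule's limits differ between the genotypes, the Col-0 and mutant counts of this group are not compared. Col-0 low light libraries lay wholly above normal light for all 13 (28% of the 19104 genes), a difference that the rule favours. Mutant low light libraries lay wholly below normal light for 0 (15.8%), with the mutant's normal light column 4 included. For AT5G16960 the mutant groups overlapped through that column alone. Without it, the count over all 85 genes went from 6 to 59 (18.4%), and this group was not counted separately. Those of the group named here other than AT5G16960 and ACT12 were picked after their values were seen. AT1G06260, a cysteine proteinase, had means of 9.06 and 166 TPM in Col-0 normal and low light, and AT2G41040, a methyltransferase, 77 and 181 TPM. Their mutant responses were -1.09 and -1.32. ACT12, an actin of pollen and the only gene of the list of pollen actins and their partners in the set, was at 2.87 ± 2.38 and 10.2 ± 1.02 TPM in Col-0 against 3.28 ± 1.72 and 1.92 ± 0.769 TPM in bhlh89,91. Of the 13 tested genes of that list, 4 were higher and 2 lower in Col-0 low light at an adjusted p under 0.05 (29.1% and 28.9% of tested genes), and 0 and 2 in the mutant (16.7% and 16.6%), shares near those over all genes for 4 higher in Col-0 and 2 lower in the mutant.

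In all, 19 of the genes lay in 7 runs, each within 10 gene positions of another, and 34 of the 85 (40%) were on chromosome 1, which holds 25% of the genes in the table. The longest run, on chromosome 1, held 5 of the set among 12 genes, 4 of them annotated with the plant domain DUF220, of unknown function. It held AT1G23650, with the largest Col-0 response of the 85 (5.64). That gene was at 0, 0, 7.82 and 0 TPM in Col-0 normal light and 57.9, 172, 166 and 93.1 TPM in low light. In bhlh89,91 the values were 0, 30.8, 7.57 and 0 TPM in normal light and 7.69, 0, 0 and 0 TPM in low light, so its mutant difference rests on columns 2 and 3 of normal light. AT1G23570 was at 0.129, 0.134, 16.2 and 0.0431 TPM in Col-0 normal light and 122, 228, 180 and 115 TPM in low light. For the mutant, levels were 0.261, 12.5, 7.59 and 0 TPM in normal light and 8.97, 0, 0.14 and 2.15 TPM in low light. Between the members of this run, AT1G23660 had 0.883 and 32.0 TPM in Col-0 but nearly equal mutant means of 1.02 and 0.964 TPM. Related genes of one run can share reads, and how the counting divided such reads was not tested.

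**Figure D3:**
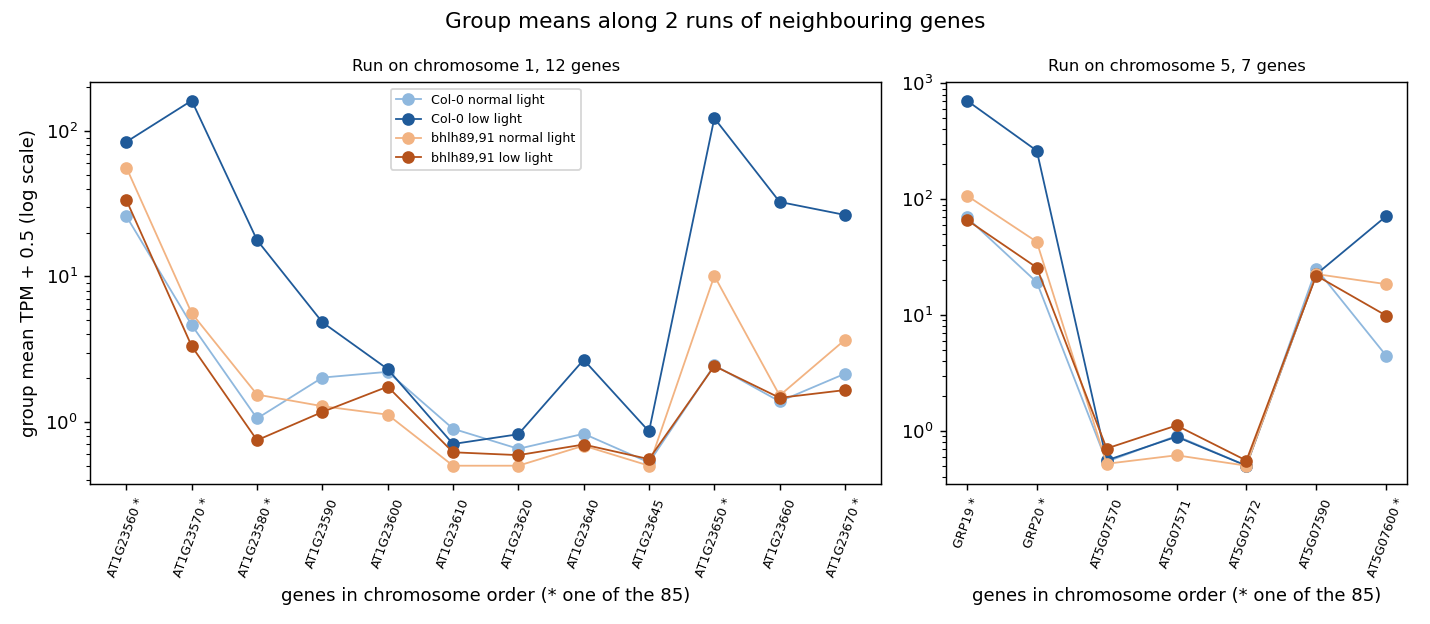
Group mean TPM + 0.5 on a log axis for each gene, in chromosome order, of the run with 5 of the 85 genes (left) and of the run with GRP19, GRP20 and AT5G07600 (right). Genes marked with a star are in the set; Col-0 low light reaches 161 TPM at AT1G23570 on the left and 710 TPM at GRP19 on the right, while AT5G07590 has means of 24.6, 22.0, 22.1 and 21.4 TPM.

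Of the 85 genes, 9 had fewer than 10 estimated counts in every library, and 22 had a library at 0. MIR827, which has the largest mutant difference (-2.79), was at 0, 0, 0 and 0 TPM in Col-0 normal light, 0, 0, 0 and 11.8 TPM in Col-0 low light, 0, 11.8, 22.7 and 57.1 TPM in mutant normal light and 11.5, 0, 0 and 0 TPM in mutant low light. ATCG00060 was at 0 in 13 of 16 libraries. A library of polyadenylated RNA reports little on a miRNA or tRNA, and MIR827 had at most 4.42 estimated counts in a library. AT1G28730, annotated as a tRNA gene, was well above this level, at 121, 137, 75.5 and 8.92 TPM in Col-0 normal light and 409, 366, 380 and 269 TPM in low light. In the mutant it was at 248, 224, 226 and 63.3 TPM in normal light and 144, 91, 184 and 47.7 TPM in low light. Over the 76 genes with at least 10 counts in a library, the median responses were 2.27 in Col-0 and -0.88 in the mutant. Of the 85, 23 overlap another gene of the RefSeq annotation, and for 4 of these the overlapping gene also differed by at least 1 in Col-0. The strand setting of the counting is not given in the sources used here, so reads of overlapping genes cannot be told apart.

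In low light all 4 Col-0 libraries lay above all 4 mutant libraries for 76 of the 85 genes (25.6% of genes), and 64 were called lower in the mutant (3.6%). In normal light the mutant mean was above the Col-0 mean for 72 of the 85 (46.3%), by a median of 0.83 on the log2 scale. The libraries separated for 4 of them (8.94%) and lay wholly below Col-0 for 3 (11.4%). In normal light 10 were called higher in the mutant (0.892%) and 1 lower (0.695%), 11 in either direction (1.59%). The 10 included cPT9 (log2FC 2.13), IRT1 (3.73) and NAC025 (1.69), and the lower one was AT3G26820, an esterase and lipase family gene (-1.79). The rule favours low Col-0 and high mutant levels in normal light, and high Col-0 and low mutant levels in low light, so the counts in either light are not independent of it. Without normal light column 4 of the mutant, 36 of the 85 lay wholly above Col-0 in normal light (12.5%), and 37 did without column 4 of both groups (13.6%). These settings were chosen after seeing that the mutant's column was low for these genes, so the larger counts follow in part from the choice. The mutant mean was above the Col-0 mean for 71 and 69 of the 85 under these settings, against 72 with all libraries. The most common order of the group means was Col-0 low, mutant normal, Col-0 normal, mutant low (36 genes), followed by Col-0 low, mutant normal, mutant low, Col-0 normal (32). Mutant normal light held the highest mean for 4 genes.

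The 11 listed genes of exine synthesis in the tapetum, none of them in the set, went the other way in Col-0. Their mean log2(TPM + 0.5) ran from 8.46 to 8.91 in Col-0 normal light and from 7.87 to 8.07 in low light, and from 8.35 to 8.66 and 7.40 to 8.26 in the mutant. At an adjusted p under 0.05, 9 of the 11 were lower in Col-0 low light (edgeR; 28.9% of tested genes) and 10 in mutant low light (16.6%), and none was higher in either. The 8 tapetum transcription factors, bHLH89 and bHLH91 included, were lower for 7 in Col-0 (28.9% of tested genes) and 4 in the mutant (16.6%). The 6 listed microspore genes had means of 0.63 to 1.86 in Col-0 normal light and 1.73 to 2.29 in low light, against 0.78 to 1.15 and 0.69 to 1.18 in the mutant. Of these 6, 3 were higher and 2 lower in Col-0 low light at an adjusted p under 0.05 (edgeR; 29.1% and 28.9% of tested genes), and 0 and 1 in mutant low light (16.7% and 16.6%). Column 3 of Col-0 normal light was the highest of its group for 36 of the 85 genes (20.5% of the 19104 genes). It was also the highest for the microspore genes (1.86, the others 0.63 to 0.85). By the same measure it was the highest for the late pollen genes (1.26) and the 4 listed sperm genes (0.25). It was not the highest for the exine and tapetum transcription factor genes. Column 4 was the lowest of its group in normal light, in Col-0 as in the mutant, for the exine, tapetum transcription factor and microspore lists. Late pollen genes summed to 7.13 to 27.6 TPM over all libraries. Of the 8 tested, 2 were higher and 1 lower in Col-0 low light at an adjusted p under 0.05 (edgeR), and 0 and 0 in mutant low light. The sperm genes MGH3 and DUO1 had means under 1 TPM in every group. The full list of 4 sperm genes had mean log2(TPM + 0.5) of -0.08 to 0.25 in Col-0 normal light. It had 0.38 to 0.49 in Col-0 low light, against 0.02 to 0.18 and -0.18 to -0.09 in mutant normal and low light. Only 2 of the 4 were tested. At an adjusted p under 0.05, 1 was higher and 1 lower in Col-0 low light (edgeR), and 0 and 1 in mutant low light. The part of cell makeup or stage in the results was not tested.

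**Figure D4:**
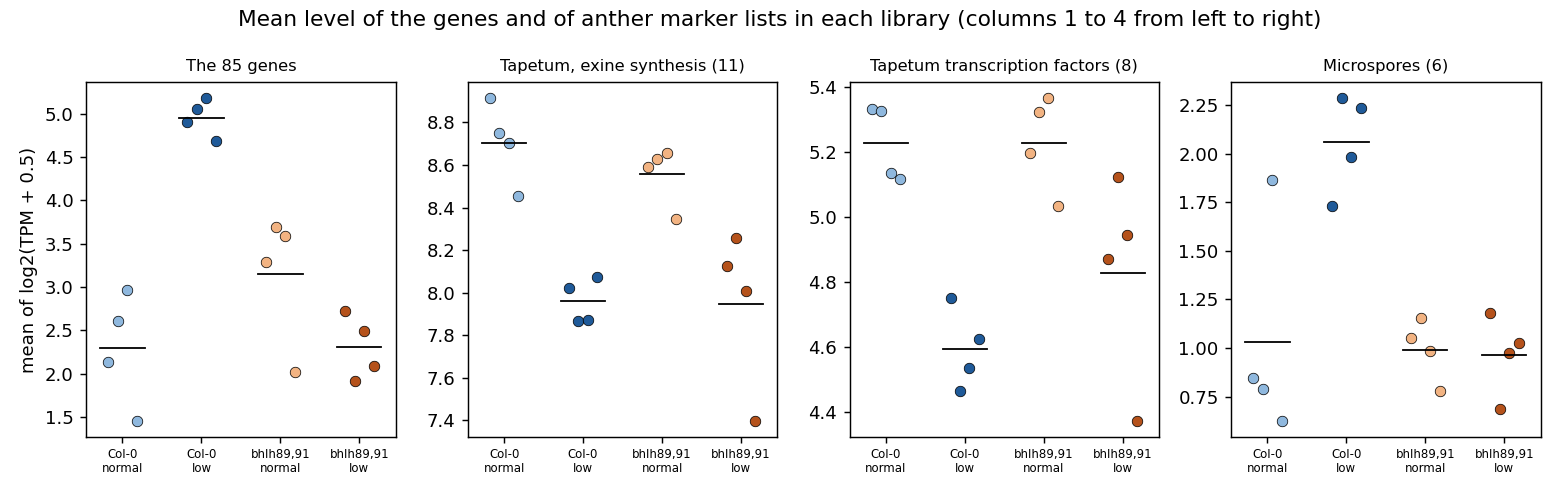
Mean log2(TPM + 0.5) in each library, columns 1 to 4 from left to right with the group mean as a line, of the 85 genes and of 3 anther marker lists with 11, 8 and 6 genes; the y axes differ between panels. The 85 genes reach 4.69 to 5.18 in Col-0 low light, where the exine genes are at 7.87 to 8.07, below every Col-0 normal light library.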

How the data were processed

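RNA from whole buds of 16 samples was sequenced on the BGISEQ-500 in paired reads of 100 bp. The authors mapped the reads to AtRTD2 with Salmon (version not given in the sources used here) and summed transcripts to genes with tximport by the length scaled TPM option. They deposited estimated counts and TPM per gene and library. No genome build is named, so no coordinates or sequences are given, and the planned promoter motifs were not searched. RefSeq annotation (TAIR10.1) served for names, gene order and overlaps (83 of 85 genes matched).

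Estimated counts were rounded and tested with edgeR 4.0.16 (R 4.3.3; TMM, quasi-likelihood F test, 1 mean per group, Benjamini-Hochberg adjustment over 21309 genes). limma 3.58.1 and DESeq2 1.42.0 were alternatives. SEs are the absolute log2FC over the square root of F. The test was run on simulated data with 200 changed genes, with dispersions estimated from the real libraries. Rule responses used log2(mean TPM + 0.5). Figures used matplotlib 3.10.9.

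Named genes are the 10 with the highest Col-0 low light TPM and the 8 with the largest difference of responses. They also include the 8 with the largest mutant fall at 5 TPM or more, list members and members annotated with a NAC domain. Genes nearest the limits, genes in runs and families of at least 3 are named as well. The genes and lists were chosen with earlier results of these data known. Columns are tied to groups only, since their numbers differ from the replicate numbers of the labels.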

Additional observations from a re-analysis of the deposited data

Results flagged for a closer look

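Within groups of 4 libraries, 1 library can lie far from the other 3. The gap of the highest or lowest library to its neighbour, divided by the range of the group, was compared with Dixon's critical value for 21 named genes and the summed level of the 85, 88 groups in all. Chance gives about 1 in 20 only for normally distributed values, while these are TPM of genes named by their values in the same libraries. The number of groups is thus not set against a chance rate. The critical value was exceeded in 12 groups. In 6 of them bhlh89,91 normal light column 4 was the lowest: LTP12 (0.990), AT1G68875 (0.832), AT1G28730 (0.868), AT1G30020 (0.849), KCS15 (0.944) and NAC025 (0.902). The same genes were measured in the same libraries, so these are not separate observations. In Col-0 normal light column 3 was the highest for GRP20 (0.890), AT1G23650 (1), AT5G44265 (0.955) and AT1G23570 (0.994), and column 4 the lowest for AT5G16960 (0.849). In bhlh89,91 low light column 1 was the highest for AT1G23650 (1), where the other 3 were at 0.

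The difference between the light responses of Col-0 and bhlh89,91 was called by edgeR for 66 of the 75 tested genes (1.75% of all tested genes). The rule selected on this difference in the same libraries, so the count is no evidence beyond the selection.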

How the results depend on the processing

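Each count of called genes was refitted with other scalings, filters, tools and limits, and without each library in turn. The counts for the Col-0 response (68), for the genotypes in low light (64) and for the difference of the responses (66) stayed within 1.5 times under every setting run, at 60 to 72, 62 to 68 and 58 to 71 without single libraries, and the last was 57 with limma-voom. The mutant response (8) was called for 1 gene with limma-voom, 13 with DESeq2, 2 when only the groups compared were fitted, 17 at an adjusted p under 0.05, and 0 to 20 without single libraries. The genotypes in normal light (11) gave 5, 19, 1 and 22 in the same order, and 4 to 23 without single libraries. Without bhlh89,91 normal light columns 1 to 4 the first count was 2, 0, 4 and 20 and the second 5, 4, 4 and 23. The first was 2, 1 and 2 without bhlh89,91 low light columns 1, 2 and 4 and 5 without each of Col-0 low light columns 1 to 3, and the second 4, 6 and 5 without Col-0 normal light columns 1, 3 and 4. The cause was not tested.

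The rule gave 78 genes with a pseudocount of 1, 98 with 0.1, 68 with TMM-scaled CPM, 98 with medians (74 of the 85 among them), 31 with a mutant fall of at least 1, 51 with a Col-0 difference of at least 2, and 72 to 104 without single libraries. Counts of genes with mutant libraries wholly lower in low light (6) and with a fall of at least 1 (31) ran from 6 to 59 and from 31 to 53 without the normal light column 4 of one genotype, and were 59 and 53 without both, settings added after seeing the data. The count with a higher mutant mean in normal light (72) ran from 66 to 71 under the first of these. Of 1870 single light responses under alternatives, 1818 moved by less than the spread between replicates, and 4 mutant responses changed sign, none of a called gene.

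No paired analysis was possible because the columns do not carry the replicate numbers of the labels. A depth of 20419619 to 23346158 counts left 9 of the 85 genes under 10 counts in every library.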
